A study of Homo sapiens with 4 samples.

Results

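To find which parts of the genome between genes were open in neuroendocrine-like prostate cancer cells and not in the adenocarcinoma cells they came from, the intergenic ATAC-seq intervals gained in C4-2BER were examined. They were chosen by the 2 deposited peak lists themselves: an interval of the C4-2BER list counted as gained when it had 0 bp of overlap with any C4-2B interval, and as intergenic when its midpoint lay more than 2000 bp from every protein-coding transcription start site (TSS) and outside every protein-coding gene body. Of 118728 C4-2BER intervals, 11629 met this rule. ATAC-seq marks open chromatin by the cuts of the Tn5 transposase, and it was carried out in 4 libraries, 2 for each line. C4-2B is a castration-resistant human prostate adenocarcinoma line of the LNCaP lineage. C4-2BER was derived from C4-2B, is labelled as neuroendocrine-like, and was grown in the continuous presence of enzalutamide, an antiandrogen drug. Each line stands for itself alone, and drug exposure, selection of cells and time in culture cannot be told apart. The libraries of a line were merged before peaks were called, so there is 1 list per line, no replicate spread and no test. The 95% Wilson intervals given with shares cover counting error only. Open sites were listed at the promoters of the neuroendocrine markers CHGA, CHGB, SYP, NCAM1, ENO2 and INSM1 and of the luminal and androgen-regulated markers KLK2, KLK3, TMPRSS2, FKBP5 and HOXB13 in both lines, so these markers did not separate the lists by presence of a peak.

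Accessible sites far from genes are mostly enhancers, where transcription factors displace nucleosomes and act on promoters at a distance, and insulator sites bound by CTCF, a protein that anchors chromatin loops. Others are promoters of long non-coding RNAs (lncRNAs) or lie in transposable elements, many of which carry binding sites for transcription factors. In luminal prostate cells, distal elements are typically bound by FOXA1, a forkhead factor that opens chromatin, together with HOXB13 and GATA factors. HNF1 and HNF4 factors drive the enhancers of liver, gut and kidney, and have also been linked to a gastrointestinal programme in prostate cancers that escape antiandrogen treatment.

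The letters of a few gained sites are shown first because the motif results turn on them. All sequences are the plus strand of hg38, 100 bp either side of the summit, which is the base with the highest pileup in the interval. The 5 strongest gained intervals with a match to the HNF1 motif, ranked by −log10 q, lay at chr1:53145910-53146110, chr4:104128896-104129096, chr3:30597304-30597504, chr13:79724586-79724786 and chr20:22490915-22491115. Each is named by its nearest protein-coding gene, and capitals mark the match.
SLC1A7: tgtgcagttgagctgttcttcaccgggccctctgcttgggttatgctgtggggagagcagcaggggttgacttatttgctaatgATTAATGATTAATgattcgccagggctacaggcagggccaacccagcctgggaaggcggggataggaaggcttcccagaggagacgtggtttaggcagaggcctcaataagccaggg
CXXC4: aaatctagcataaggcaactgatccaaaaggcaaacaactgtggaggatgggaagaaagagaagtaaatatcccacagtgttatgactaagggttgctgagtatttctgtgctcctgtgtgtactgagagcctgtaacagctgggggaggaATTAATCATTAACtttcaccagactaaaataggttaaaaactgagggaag
TGFBR2: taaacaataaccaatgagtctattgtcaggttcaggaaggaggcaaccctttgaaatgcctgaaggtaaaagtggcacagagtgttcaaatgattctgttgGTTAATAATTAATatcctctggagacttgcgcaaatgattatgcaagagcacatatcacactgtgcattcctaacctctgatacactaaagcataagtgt
NDFIP2: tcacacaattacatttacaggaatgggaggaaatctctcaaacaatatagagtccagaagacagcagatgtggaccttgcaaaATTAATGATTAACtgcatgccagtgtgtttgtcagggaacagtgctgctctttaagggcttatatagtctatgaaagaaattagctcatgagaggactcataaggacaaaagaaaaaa
FOXA2: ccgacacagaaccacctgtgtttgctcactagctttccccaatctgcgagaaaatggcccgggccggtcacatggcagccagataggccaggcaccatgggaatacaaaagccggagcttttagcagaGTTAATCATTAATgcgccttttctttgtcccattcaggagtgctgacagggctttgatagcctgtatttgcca
Matches to the HNF4 motif CAAAGTCCA, in capitals, are shown for 2 strong gained intervals, at chr7:121714635-121714835 and chr18:70376885-70377085.
PTPRZ1: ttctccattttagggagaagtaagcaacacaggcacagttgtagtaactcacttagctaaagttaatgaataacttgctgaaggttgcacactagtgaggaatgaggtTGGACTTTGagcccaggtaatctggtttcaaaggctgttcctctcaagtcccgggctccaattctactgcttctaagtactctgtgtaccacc
SOCS6: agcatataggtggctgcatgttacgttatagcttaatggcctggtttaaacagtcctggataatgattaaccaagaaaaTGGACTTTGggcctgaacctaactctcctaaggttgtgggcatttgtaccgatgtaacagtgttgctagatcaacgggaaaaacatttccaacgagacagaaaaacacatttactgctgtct
The 3 gained intervals with the highest −log10 q of all are shown as the strongest members, with each CpG in capitals. None of the 3 met the CpG-island-like criterion used further on. They lay at chr12:93314731-93314931, chr7:65269222-65269422 and chr2:8583875-8584075.
NUDT4: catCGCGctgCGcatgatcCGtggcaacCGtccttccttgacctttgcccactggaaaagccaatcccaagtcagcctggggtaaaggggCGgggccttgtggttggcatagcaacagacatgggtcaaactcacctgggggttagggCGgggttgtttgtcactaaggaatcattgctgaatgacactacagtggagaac
ZNF92: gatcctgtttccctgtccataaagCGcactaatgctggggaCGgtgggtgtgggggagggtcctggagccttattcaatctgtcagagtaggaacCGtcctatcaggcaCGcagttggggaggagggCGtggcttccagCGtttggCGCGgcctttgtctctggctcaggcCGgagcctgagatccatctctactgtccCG
ID2: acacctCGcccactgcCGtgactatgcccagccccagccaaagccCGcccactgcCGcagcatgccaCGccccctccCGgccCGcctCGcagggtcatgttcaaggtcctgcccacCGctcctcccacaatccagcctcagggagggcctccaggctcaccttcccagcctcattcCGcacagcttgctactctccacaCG
The most frequent run of 24 bases in the largest family of related repeated sequence among gained intervals is shown last. Families were built around gained summits, as described further on.
Repeat family A: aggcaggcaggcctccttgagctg

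Gained intervals made up 23.4% of the 49676 intergenic C4-2BER intervals, against 20.8% of all C4-2BER intervals and 21.4% of the 46350 inside gene bodies and over 2000 bp from a TSS. Since the rule itself compares the lists, these shares describe it and are not a finding. The other 38047 intergenic C4-2BER intervals overlapped a C4-2B interval and are called kept. Of 63888 intergenic C4-2B intervals, 26279 (41.1%, 95% interval 40.8 to 41.5) had no C4-2BER overlap and are called lost. Gained sites were weak. Reads at a summit were recovered from the deposited fold enrichment and p-value, and the strength given is that in the C4-2BER list, which the rule used. The median gained summit held 13 reads (quartiles 11 and 18, highest 147), with a fold enrichment over background of 4.49 and a width of 255 bp. The median kept summit held 23 reads with a fold of 6.37 and a width of 373 bp, and the median lost summit held 18 reads in the C4-2B list. Among gained intervals, 2046 (17.6%, 95% interval 16.9 to 18.3) had a −log10 q of 10 or more, as had 58.0% of kept ones. The gained share fell with strength, from 54.8% of intervals with 7 to 9 reads to 2.96% of those with at least 75 reads. The C4-2B list came from an estimated 30.2 M reads and that of C4-2BER from 25.2 M, so the gains lie in the shallower list. Calling reached down to 7 reads in C4-2BER and to 8 in the other line. When gained summits had to reach 16 depth-scaled reads, which is 2 times the lowest C4-2B summit, 5578 of them were left.

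**Figure D1:**
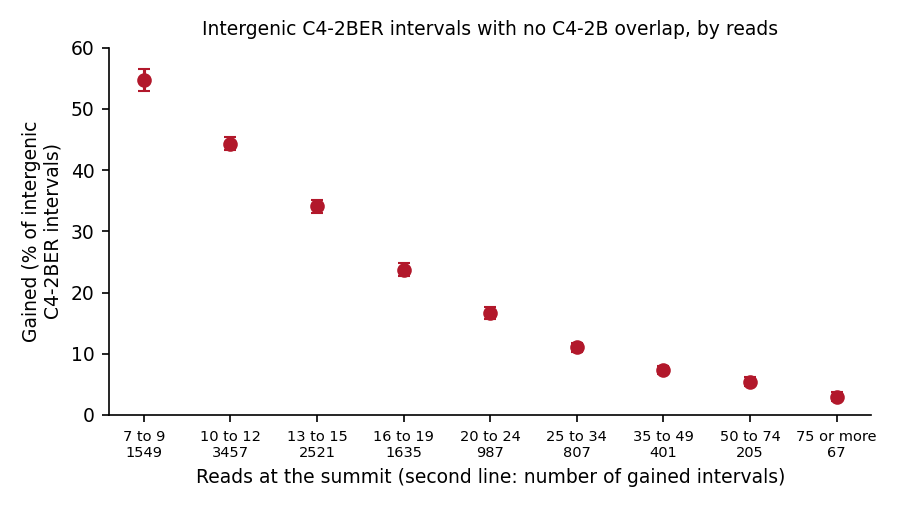
Share of intergenic C4-2BER intervals that had no C4-2B overlap (vertical axis, %) by the number of reads at the summit (horizontal axis, with the number of gained intervals beneath). Bars are 95% Wilson intervals. The share fell from 54.8% at 7 to 9 reads to 2.96% at 75 reads or more.

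The intervals on either side of the limits of the rule had these values. The 302 gained intervals within 100 bp of a C4-2B interval had a median of 13 reads and a −log10 q of 4.24, and the 216 kept intervals that overlapped a C4-2B interval by at most 100 bp had 11 reads and 3.47. The 94 gained intervals with a TSS more than 2000 and up to 3000 bp away had a median of 24.5 reads. The 127 gained intervals outside gene bodies with a TSS more than 1000 and up to 2000 bp away, just outside the rule, had 29 reads. A C4-2B interval lay within 500 bp of 12.6% of gained intervals, and 34.6% had none within 10000 bp (median gap 5991 bp).

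The strongest gained site lay at chr12:93314504-93315500, 62881 bp upstream of a TSS of NUDT4, which encodes a diphosphoinositol polyphosphate phosphohydrolase. Its summit held 147 reads with a −log10 q of 105, and 98.3% of the C4-2BER list ranked at or below it. The next, at chr7:65269057-65270113, held 125 reads (−log10 q 102) and covered the TSS of the lncRNA ENSG00000282381, 104214 bp from ZNF92, a zinc finger gene. A site at chr2:8583687-8584311 held 102 reads (−log10 q 87.4) and covered the TSS of LINC01814, 94846 bp from ID2, which encodes an inhibitor of basic helix-loop-helix factors. The nearest C4-2B intervals were 811, 14341 and 6659 bp from these 3 sites. The other 7 of the 10 strongest held 87 to 135 reads. Their nearest genes were AACS, an acetoacetyl-CoA synthetase gene, at 15654 bp, KLK1, a kallikrein gene, at 5395 bp, FXYD4, a sodium pump regulator gene, at 9203 bp, DUSP4, a MAP kinase phosphatase gene, at 205000 bp, RALA, a small GTPase gene, at 109511 bp, TMEM97, a sterol-regulated membrane protein gene, at 91467 bp and BIRC3, an apoptosis inhibitor gene, at 48646 bp. The site near RALA covered the TSS of LINC00265.

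CpG-rich sequence was more frequent at strong gained sites than at weak ones, and 5 of the 10 strongest were CpG-island-like. CpG-island-like here means at least 50% GC and an observed-to-expected CpG ratio of at least 0.6. Within 250 bp of the summit, CpG-island-like sequence was found at 2.38% of gained intervals with 7 to 12 reads (95% interval 1.99 to 2.84) and at 23.5% of the 673 with at least 35 reads (95% interval 20.4 to 26.8). Among kept intervals of at least 35 reads the share was 14.6% (95% interval 13.9 to 15.3), and among lost ones it was 0.530% (95% interval 0.343 to 0.817). Median GC content within 100 bp of gained summits rose from 47.3% to 56.7% over the same read classes, while that of lost summits went from 46.3% to 44.8%. Over all strengths, the median was 48.8% for gained, 48.8% for kept and 45.3% for lost summits. In the read classes 7 to 12, 13 to 19, 20 to 34 and at least 35, gained medians were above kept ones. In that order they were 47.3% against 46.3%, 48.3% against 46.3%, 51.2% against 47.8% and 56.7% against 53.7%. A lncRNA TSS was covered by 352 gained intervals (3.03%, 95% interval 2.73 to 3.35), by 4.40% of kept and by 1.00% of lost intervals. At 35 reads or more it was covered by 10.3% of gained and 10.2% of kept intervals, so the classes were alike at that strength. They were close at 7 to 12 reads as well. In between, the gained share was the larger. A lncRNA TSS was covered by 2.31% of gained and 1.61% of kept intervals at 13 to 19 reads. At 20 to 34 reads the shares were 5.96% and 2.73%.

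Gained intervals lay a median of 74919 bp from the nearest protein-coding TSS (quartiles 25610 and 218584). The medians were 60666 bp for kept and 85858 bp for lost intervals. Distance fell with strength, and within each read class the gained median was below the kept one. It was 97646 against 100049 bp at 7 to 12 reads and 78910 against 82991 bp at 13 to 19. At 20 to 34 reads it was 45915.5 against 61728 bp, and at 35 or more 27604 against 35708 bp. Within 10 kb of a TSS lay 8.72% of gained intervals (95% interval 8.22 to 9.25), and 355 (3.05%) lay over 1000 kb away. They were upstream of that TSS in 59.7% of cases, as were 60.2% of kept intervals. A lncRNA gene body held 27.8% of gained, 28.4% of kept and 28.6% of lost midpoints. The 3 gained intervals farthest from any protein-coding TSS were in poorly annotated parts of the short arms of chromosomes 22 and 21, at 4220036 bp from OR11H1, an olfactory receptor gene, and at 4159664 and 4157750 bp from TPTE, a testis-expressed phosphatase gene.

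Gained intervals were unevenly spread along chromosomes. By chromosome, the gained share of intergenic C4-2BER intervals ran from 20.2% on chromosome 16 to 29.0% on chromosome 13 (95% interval 27.0 to 31.2) and 29.2% on the X (95% interval 27.0 to 31.5), with 34.4% of only 96 intervals on the Y. In 299 windows of 10 Mb, the median share was 23.1%. The 3 highest windows were neighbours on chromosome 13, with 52.6%, 45.6% and 45.5%. Lost intervals made up 45.9%, 40.5% and 44.1% of the intergenic C4-2B intervals of these windows, beside 41.1% of all. From 60 to 90 Mb of chromosome 13, 245 of 514 intervals were gained (47.7%, 95% interval 43.4 to 52.0), against 21.5% on the rest of the chromosome (95% interval 19.3 to 23.8). This stretch was chosen after the windows were seen. The contrast was also seen among stronger summits, at smaller shares. At 20 reads or more, 41 of 166 intervals of the stretch were gained (24.7%, 95% interval 18.8 to 31.8), 6.76% on the rest of chromosome 13 and 9.96% over all chromosomes. Kept sites moved with it. After depth scaling, the median ratio of C4-2BER to C4-2B reads at kept intergenic summits was 0.979 in the stretch, 0.791 on the rest of chromosome 13 and 0.860 over all chromosomes. The local background was above the genome-wide floor at 42.7% of C4-2BER and 34.9% of C4-2B intervals of the stretch, and at 62.5% and 65.4% on the rest of the chromosome. Whether the number of DNA copies of this stretch differs between the lines was not tested.

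**Figure D2:**
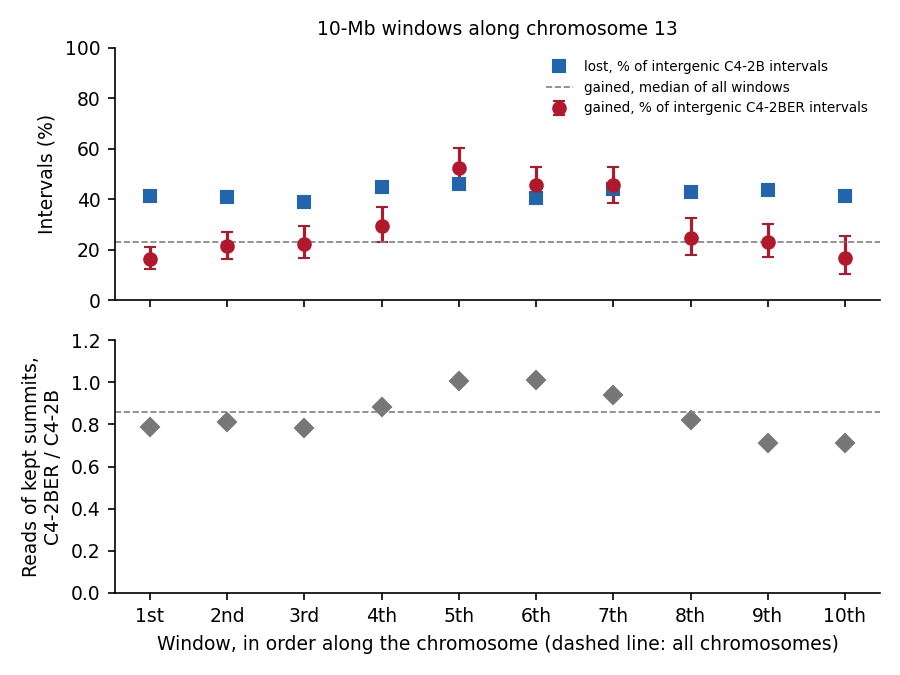
Windows of 10 Mb in order along chromosome 13. The upper panel gives gained intervals as a share of intergenic C4-2BER intervals (circles, 95% Wilson intervals) and lost ones as a share of intergenic C4-2B intervals (squares), with the median gained share of 299 windows dashed. The lower panel gives the median depth-scaled ratio of reads at kept summits, with 0.860 for all chromosomes dashed. The gained share reached 52.6%, 45.6% and 45.5% in the fifth to the seventh window, where the ratio was 1.01, 1.01 and 0.940.

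Named by nearest gene, the 11629 intervals were assigned to 5149 of 19689 protein-coding genes (26.2%). Of these, 2707 were nearest to 1 gained interval and 95 to at least 10. Long flanks without genes collect intervals of every class, so each count is set against all intergenic C4-2BER intervals of the gene. TPTE had the most, with 33 of 110 (30.0%), reads of 7 to 110 (median 13) and distances of up to 4159664 bp. On chromosome 13, PCDH9, a protocadherin gene of neuronal adhesion, had 27 of 45, with 7 to 44 reads (median 14). SPRY2, which encodes an inhibitor of receptor tyrosine kinase signalling, had 25 of 53 (47.2%), with 8 to 27 reads. SLITRK6 and SLITRK5, which encode neuronal transmembrane proteins that shape neurite growth and synapses, had 23 of 43 (53.5%) and 21 of 41 (51.2%). ENSG00000285566 had 19 of 28 (67.9%). All 5 of these genes lie within the stretch of chromosome 13 described above. Elsewhere, ZNF608 had 21 of 59 (35.6%) and CITED2, a transcriptional co-regulator gene, 21 of 45 (46.7%). PIK3C3, the class III phosphoinositide 3-kinase gene, had 20 of 58 (34.5%) and GATA3, a luminal transcription factor gene, 18 of 38 (47.4%). Lost intervals lay nearest to the same genes too, from 11 at CITED2 and at ENSG00000285566 to 43 at TPTE. The share of all intergenic C4-2BER intervals that was gained, the background for these counts, was 23.4%.

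When gained intervals at most 12.5 kb apart were joined, 3332 (28.7%, 95% interval 27.8 to 29.5) fell into clusters of 2 or more, and 8297 stood alone. There were 1275 clusters of 2, 191 of 3, 30 of 4, 14 of 5, 2 of 6 and 1 of 7. Kept intervals, which are denser, were clustered in 55.5% of cases and lost ones in 43.4%. Gained intervals had gained neighbours more often than kept intervals did, in a comparison matched for neither strength nor locus. Where another intergenic C4-2BER interval followed within 12.5 kb, it was gained after 31.5% of gained intervals (1560 of 4953, 95% interval 30.2 to 32.8) and after 21.0% of kept ones (3272 of 15563, 95% interval 20.4 to 21.7).

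The largest cluster held 7 gained intervals over 55472 bp at chr8:37620277-37675748, ending 20034 bp before ZNF703, a transcriptional repressor gene amplified in luminal breast cancer, with KCNU1 on the other side. In order along the chromosome, its summits held 24, 13, 34, 8, 17, 14 and 22 reads, with no kept and 1 lost interval among them. A cluster of 6 at chr6:43990308-44002977, between VEGFA, the angiogenic growth factor gene, at 215955 bp and TMEM63B at 123937 bp, was the strongest of the 5 by summed reads (191). Its summits held 48, 20, 23, 38, 36 and 26 reads, and it enclosed 1 kept and 1 lost interval. Another cluster of 6, at chr6:154537138-154567603 between CNKSR3, a scaffold protein gene, and SCAF8, was made of weak summits of 8 to 15 reads. A cluster of 5 at chrX:131762728-131779487, between IGSF1 and STK26, a kinase gene, held 49, 48, 20, 40 and 17 reads, and 1 of its sequences occurred in many copies (median 24-mer count 353). A cluster of 5 at chr14:77053169-77077189, between IRF2BPL and the circadian regulator gene CIPC, held 17 to 40 reads and enclosed 3 kept intervals.

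Motif letters were searched on both strands within 100 bp of the summit, and a match describes the letters only. To keep repeated sequence from weighing on the shares, they are given for the 9819 gained, 34530 kept and 23794 lost summits whose surrounding runs of 24 bases had a median genome count under 2. The HNF1 motif, a long palindrome seen in capitals in the sites printed above, was rare and set gained sites most apart. It was found at 31 gained summits (0.316%, 95% interval 0.223 to 0.448), at 7 kept summits (0.0203%) and at 0 lost summits. Over all 26279 lost summits, a count of 0 allows a share of up to 0.0114%, the limit that 3 counts would give, and up to 0.0146% by the Wilson interval. All 31 had a median 24-mer count of 1 and lay nearest to 31 different genes, a median of 121734 bp away. Among all 9929 gained intervals inside gene bodies, which the intergenic rule left out, 27 (0.272%) held the motif. With repeats included in the same way, the intergenic share was 0.267% of 11629, so the 2 parts were alike. The strongest intergenic one, 3368 bp upstream of SLC1A7, a glutamate transporter gene, held 54 reads and had no C4-2B interval within 25907 bp. The one near CXXC4, an inhibitor of Wnt signalling, held 48 reads, and that near TGFBR2, the type II TGF-beta receptor gene, 36. The one 93553 bp from FOXA2, a forkhead factor gene of gut and liver, held 25. These loci were named after their values were seen.

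Some other homeobox and gut factor motifs were also found at a larger share of gained summits, but not all. HNF4 (CAAAGTCCA) stood at 0.876% of gained (95% interval 0.710 to 1.08), 0.388% of kept (95% interval 0.328 to 0.459) and 0.319% of lost summits. PBX-HOX (TGATTNAT), the composite site of homeobox factors with their PBX partners, stood at 3.97% (95% interval 3.60 to 4.38), 2.73% (95% interval 2.56 to 2.91) and 3.01%. CDX (TTTATGG), a site of the caudal homeobox factors of the gut, stood at 4.52%, 3.30% and 3.56%. The octamer of POU factors (ATGCAAAT) stood at 2.43% (95% interval 2.15 to 2.76), 1.84% (95% interval 1.70 to 1.99) and 1.79%. NKX2 (CACTTNA) stood at 11.9%, 10.3% and 11.1%. ONECUT (ATCGAT) stood at 0.326% of gained (95% interval 0.231 to 0.460) and 0.298% of kept summits (95% interval 0.246 to 0.362), so its intervals overlapped. CEBP (TTGCNNAA) was the lower in gained summits, at 10.4%, against 11.6% of kept and 13.4% of lost ones. In an open search, the 5296 sequences of 8 bases found in 1% or more of these gained summits were ranked by the ratio of the gained to the kept share. The first 4 were AATCATTA, AATGATTA, ATCATTAA and ATGATTAA, which overlap one another in letters, at 1.19% to 1.35% of gained and 0.507% to 0.573% of kept summits. The fifth was GTTAATGA, at 1.07% and 0.489%. The lowest was GTAAACAA, which holds the forkhead core, at 1.30% of gained and 2.86% of kept summits.

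Other motifs, those of luminal prostate enhancers among them, stood at a smaller share of gained than of kept summits. The forkhead motif (TGTTTAC) stood at 4.52% of gained (95% interval 4.13 to 4.95), 8.06% of kept (95% interval 7.78 to 8.35) and 12.2% of lost summits (95% interval 11.8 to 12.6). The androgen response element, a paired steroid hormone response site, stood at 3 gained summits (0.0306%), 51 kept (0.148%) and 168 lost (0.706%). The GATA-factor motif, in letters AGATAA, stood at 10.5%, 11.5% and 15.5%. Its intervals for gained (9.94 to 11.15) and kept summits (11.15 to 11.82) just overlapped. The CTCF motif, which a looping protein reads, stood at 1.72% of gained (95% interval 1.48 to 2.00), 5.24% of kept (95% interval 5.01 to 5.48) and 0.509% of lost summits. The gap between gained and kept was much smaller among weak summits, as given below. The motif of REST, a repressor of neuronal genes, stood at 9 gained (0.0917%), 106 kept (0.307%) and 11 lost summits (0.0462%). The ZEB motif (CAGGTG) stood at 15.7%, 21.0% and 18.9%. Over all 49676 intergenic C4-2BER summits, repeats included, the shares were 0.0765% for HNF1, 0.469% for HNF4, 2.89% for PBX-HOX, 3.35% for CDX and 1.95% for the octamer. They were 8.97% for forkhead, 0.109% for the androgen response element, 4.16% for CTCF, 0.236% for REST and 19.6% for ZEB, and GATA stood at 5463 of them.

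**Figure D3:**
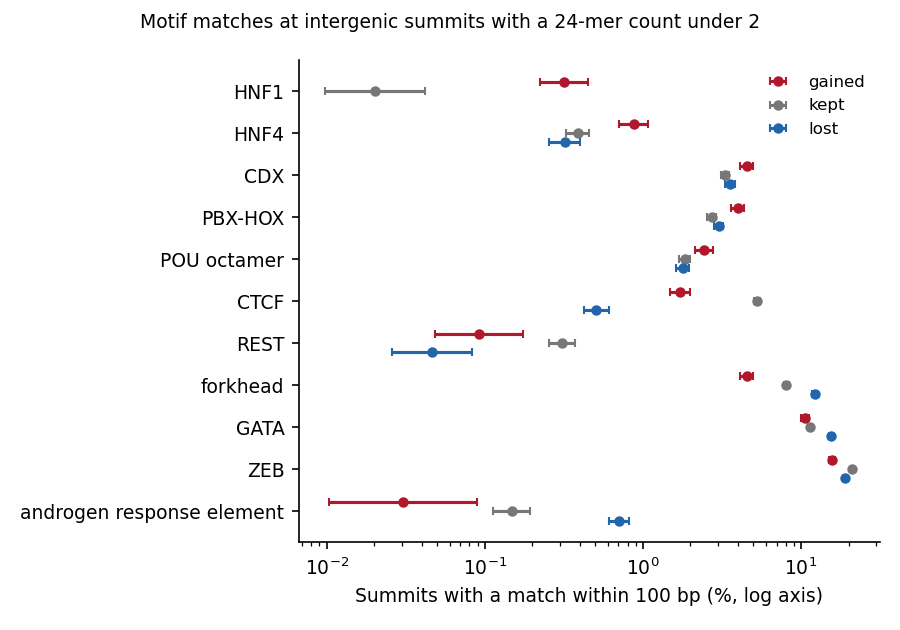
Share of intergenic summits with a motif match within 100 bp (log axis, %) among gained, kept and lost intervals whose 24-mers have a median genome count under 2. Bars are 95% Wilson intervals, and a class with 0 matches has no point. HNF1 and HNF4 stood at 0.316% and 0.876% of gained against 0.0203% and 0.388% of kept summits, while forkhead and CTCF stood at 4.52% and 1.72% of gained against 8.06% and 5.24% of kept ones.

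Some of these contrasts were also read within classes of GC content and strength, and not all held in each class. Among summits of single-copy sequence with 40% to 50% GC, HNF1 stood at 0.350% of gained and 0.0199% of kept summits, CTCF at 1.58% and 4.24%, and forkhead at 4.75% and 9.30%. Forkhead was at a smaller share of gained than of kept summits in each of the 4 GC classes, although at 60% GC or more the intervals overlapped (0.734%, 95% interval 0.372 to 1.44, against 1.56%, 95% interval 1.23 to 1.98). With repeats included, that class instead gave 9.21% of gained and 3.77% of kept summits. The largest repeat family, described next, has a GC content near this class and carries the motif in most of its members. Under 40% GC, CTCF stood at 2.45% of gained and 2.51% of kept single-copy summits, with overlapping intervals, and in the other GC classes it was the lower in gained summits. HNF1 was the more frequent in gained summits in each class under 60% GC. With repeats included, the octamer stood at 3.14% of gained and 3.11% of kept summits under 40% GC. At 40% to 50% GC it stood at 3.33% and 2.27%, and at 50% to 60% at 1.26% and 1.25%. At 40% to 50% GC, HNF4 stood at 1.04% and 0.412%, CDX at 5.09% and 3.92% and PBX-HOX at 4.03% and 3.41%. At 50% to 60%, in that order, they stood at 0.519% and 0.388%, 1.97% and 1.69%, and 2.43% and 1.25%. Intervals overlapped for PBX-HOX in the former class and for HNF4 and CDX in the latter. Among all summits of at least 20 reads, repeats included, HNF1 stood at 10 of 2467 gained and at 0.0179% of kept. HNF4 stood at 1.13% and 0.394%, CTCF at 1.74% and 6.93%, and forkhead at 6.61% and 8.89%. Among weaker summits, repeats included, the gap for CTCF was small. It stood at 0.879% of gained and 1.24% of kept summits with 7 to 12 reads, and at 2.33% and 2.63% with 13 to 19. Forkhead stood at 6.81% and 10.4%, and at 8.04% and 10.4%, in these classes.

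Repeated sequence was found at a larger share of gained sites. For each summit, the count in the hg38 genome of every run of 24 bases within 100 bp was taken, and the median was used. It was at least 10 at 1007 gained summits (8.66%, 95% interval 8.16 to 9.18), at 3.76% of kept (95% interval 3.58 to 3.96) and at 3.78% of lost summits (95% interval 3.56 to 4.02). It was at least 1000 at 1.51%, 0.405% and 0.301%. Gained intervals inside gene bodies were between, with 4.81% at a count of at least 10. Turned round, 41.3% of the 2439 intergenic C4-2BER intervals with a count of at least 10 were gained, and 22.1% of the 44349 with a count under 2. High-copy gained summits held a median of 13 reads, as did the others. Only reads with a mapping quality of at least 10 had been kept, and the part of read placement in these shares was not tested.

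**Figure D4:**
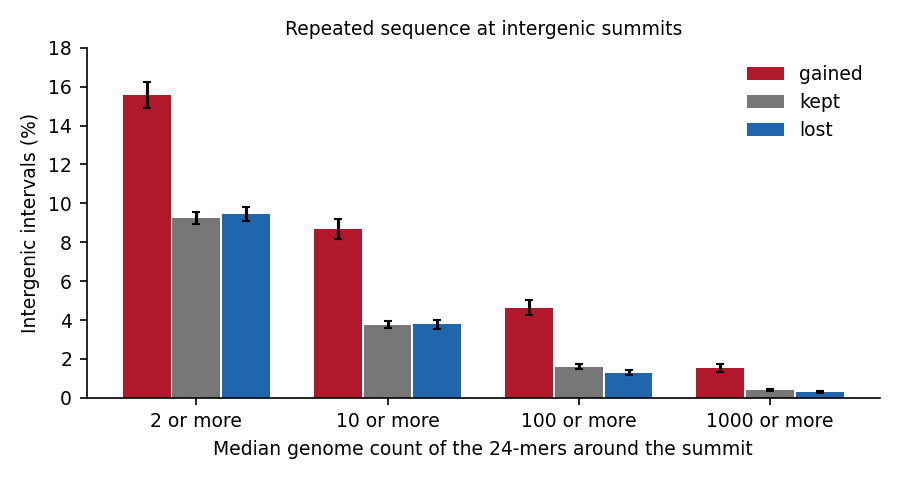
Share of gained, kept and lost intergenic intervals (vertical axis, %) whose 24-mers around the summit had a median genome count of at least 2, 10, 100 or 1000. Bars start at 0 and carry 95% Wilson intervals. Gained intervals had the largest share at each count, 8.66% at 10 or more against 3.76% of kept and 3.78% of lost intervals.

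By alignment to one another, 2236 gained summits (19.2%) matched at least 1 other gained summit over 100 bp or more, as 6095 of the 38047 kept summits matched another kept one and 3985 of the 26279 lost summits (15.2%) another lost one. Each family was built around the gained summit that aligned with the most other gained summits, and kept and lost summits were counted when they aligned to it. Larger gained shares are therefore favoured by construction and are not a finding. The largest family of related sequence, family A above, held 304 gained intervals on 23 chromosomes (2.61% of gained), 538 kept (1.41%) and 140 lost (0.533%). Its gained summits had a median GC content of 59.2% and 24-mer count of 397.5, held 7 to 58 reads (median 15), and matched the forkhead motif in 91.1% of cases, and 198 carried the printed 24 bases. The next largest family held 222 gained (1.91%), 227 kept (0.597%) and 173 lost intervals (0.658%), with 7 to 55 reads. Another family held 92 gained (0.791%), 100 kept (0.263%) and 20 lost (0.0761%), and 83.7% of its gained members matched the E-box CAGATG. A smaller one held 47 gained (0.404%), 48 kept (0.126%) and 16 lost (0.0609%), and 59.6% of its gained members matched the GATA motif. Of the gained summits, 24 (0.206%, 95% interval 0.139 to 0.307) aligned to the signal recognition particle RNA RN7SL1, from which Alu elements derive, as did 30 kept (0.0788%) and 37 lost summits (0.141%). No repeat annotation was used, so the families carry no other name.

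Gene lists were compared by the share of gained among the intergenic C4-2BER intervals nearest to their genes, beside 23.4% for all genes. Intervals of 1 gene share a locus and are not independent. Homeobox genes of the HOX, PBX and MEIS families, which pattern the body axis, had the largest share, with 39 of 100 (39.0%, 95% interval 30.0 to 48.8), and 10 of 46 genes (21.7%) were nearest to a gained interval, beside 26.2% of all genes. MEIS1, a HOX cofactor, had 14 of 21 (66.7%), with 8 to 33 reads, and without it the list had 31.6% (95% interval 22.4 to 42.5). HOXC4 had 4 of 5 and HOXC12 2 of 3, with 39 and 54 reads at the latter. Gut and liver transcription factors followed with 73 of 228 (32.0%, 95% interval 26.3 to 38.3), over 16 of 22 genes. NR5A2, a nuclear receptor of liver and pancreas, had 15 of 29 (51.7%), KLF4, a zinc finger factor of epithelia, 11 of 44 and KLF5 7 of 18 (38.9%). KLF5 lies in the stretch of chromosome 13 where 47.7% of all intervals were gained. The strongest gained interval near KLF4 held 74 reads. Without NR5A2 the list had 29.1% (95% interval 23.3 to 35.8).

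Neural lists were closer to all genes. Adhesion and axon guidance genes had 322 of 1171 (27.5%), over 66 of 90 genes. Without chromosome 13 from 60 to 90 Mb they had 25.2% (95% interval 22.6 to 27.9). Among them SLITRK1 had 14 of 38 (36.8%) and CDH2, the N-cadherin gene, 15 of 34 (44.1%). SLITRK1, like SLITRK6 and SLITRK5 above, lies in that stretch. Neurotransmitter receptor genes had 81 of 285 (28.4%, 95% interval 23.5 to 33.9), over 30 of 59 genes. CHRM3, a muscarinic acetylcholine receptor gene, had 10 of 16 (62.5%), HTR7 and HTR2A, serotonin receptor genes, 10 of 22 and 5 of 7, and GRM7, a glutamate receptor gene, 5 of 17. Neural and neuroendocrine transcription factors had 112 of 423 (26.5%, 95% interval 22.5 to 30.9), over 28 of 46 genes. POU3F3 had 11 of 28 (39.3%), ISL1 8 of 19 (42.1%), NKX6-1 7 of 18 (38.9%) and EOMES 7 of 17 (41.2%). PAX genes, the family of PAX5, had 14 of 50 (28.0%, 95% interval 17.5 to 41.7), over 5 of 9 genes: PAX2 had 4 of 10, PAX3 4 of 5, PAX1 3 of 16 and PAX8 2 of 5, of which the stronger held 62 reads. Neurosecretory and synaptic vesicle genes had 36 of 155 (23.2%, 95% interval 17.3 to 30.5), over 16 of 45 genes. SRRM4, a neural splicing factor gene, had 4 of 8 and PCSK1, a prohormone convertase gene, 4 of 12. PCLO, a presynaptic scaffold gene, had 4 of 10 and SYT4, a vesicle protein gene, 4 of 24.

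Androgen-regulated and luminal genes had 48 of 243 (19.8%, 95% interval 15.2 to 25.2), over 16 of 32 genes, and housekeeping genes 9 of 47 (19.1%, 95% interval 10.4 to 32.5), over 6 of 16. GATA3 supplied 18 of the luminal ones, and without it the list had 14.6% (95% interval 10.4 to 20.1). ELL2 had 6 of 24, TRIB1 4 of 29 and GATA2 3 of 8. YWHAZ had 3 of 18, HPRT1 2 of 6, and EEF1A1 and ACTB had 1 of 2 each. The 95% interval lay wholly above 23.4% for 4 lists, those of the HOX, PBX and MEIS, the gut and liver, the neurotransmitter receptor and the adhesion genes. It reached below 23.4% for the first 3 of these without the gene with the most gained intervals (for receptors without CHRM3, 26.4%, 95% interval 21.5 to 32.0), and for the adhesion genes without the stretch of chromosome 13. Beside 41.1% of all intergenic C4-2B intervals, lost ones made up 51.2% of those nearest to the receptor list, 49.8% for adhesion and 47.1% for neural factors. They made up 43.4% for the gut and liver list, 35.1% for the HOX, PBX and MEIS list and 36.7% for the androgen-regulated list. The receptor, adhesion and neural factor lists thus had larger lost shares than these. The other lists of the neural paragraph did not stand out in this way. Lost intervals were 92 of 209 for the neurosecretory list and 18 of 55 (32.7%) for the PAX genes.

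**Figure D5:**
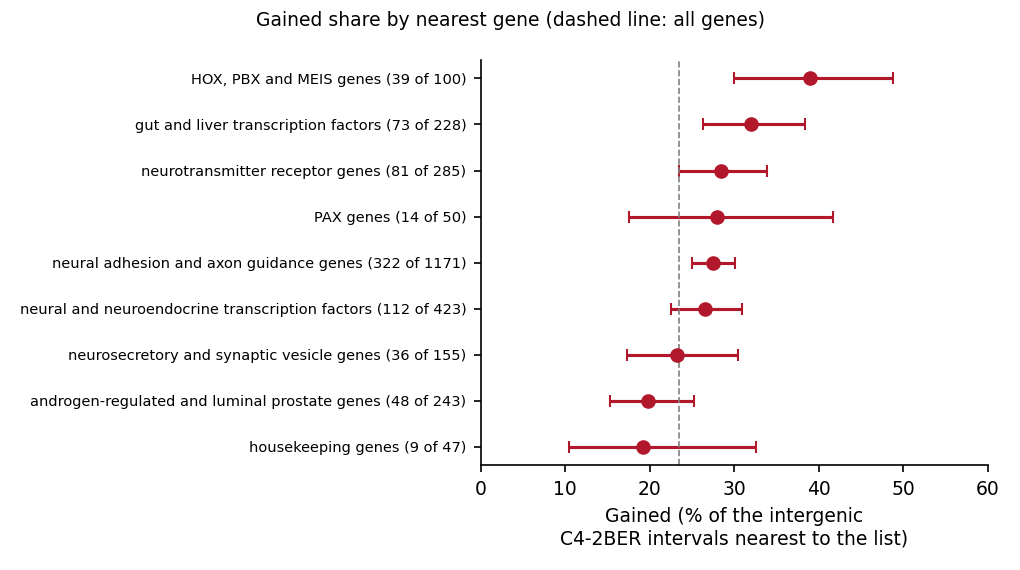
Share of gained intervals (horizontal axis, %) among the intergenic C4-2BER intervals whose nearest protein-coding gene is in each list, with 95% Wilson intervals and the number gained of all. The dashed line is the share for all genes, 23.4%. The HOX, PBX and MEIS list stood at 39.0% and the gut and liver list at 32.0%, while the androgen-regulated list stood at 19.8%.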

How the data were processed

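ATAC-seq libraries of C4-2B and C4-2BER, 2 per line, had been trimmed, aligned to hg38 with Bowtie2, filtered at a mapping quality of at least 10, freed of duplicates with Picard and merged by line before macs2 called peaks. The submitters' processing notes also list FastQC and bedtools 2.17. The macs2 version and genome size are not given in the sources used here. Each deposited list holds the fold enrichment, which is a ratio over the local background, the −log10 p and −log10 q of each summit, a score derived from the q-value by the authors' caller and not used here, and the summit offset in bp. Lists were 149676 and 118728 intervals after one row was kept per interval.

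Reads at each summit and the local background were solved from fold enrichment and −log10 p, and 100% of summits gave whole reads within 0.001 of the deposited −log10 p. Depth was estimated from the lowest background at a genome size of 2700000000 bp. TSSs and gene bodies came from GENCODE release 44. Overlap meant at least 1 bp. Sequences were read from hg38 with pysam 0.24.0, and alignments (at least 80% identity over 100 bp, or 150 bp for families) were made with blastn 2.17.0. Tables were made with Python 3.11.15, pandas 2.3.3, numpy 2.4.6 and scipy 1.17.1, and drawn with matplotlib 3.10.9. The steps were tested on simulated data.

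Members, gene lists and motifs were chosen with earlier results of these data known. Named were the 10 members with the highest −log10 q, the 10 genes nearest to most members, up to 4 genes per list, the 5 largest clusters (ties by summed summit reads), the 3 members farthest from a TSS and the 3 strongest over a lncRNA TSS. The HNF1 and HNF4 loci fall outside that rule. The copy number of 24-mers, which replaced a planned soft-mask measure because the genome given is all upper case, the families, the open search of 8 bases, the single-copy, GC and strength classes of motifs, also GC within single copy, the 10-Mb windows with the stretch of chromosome 13, and the gene lists without 1 gene or region were chosen after seeing the data. With 1 merged list per line no test between lines was made. Wilson intervals cover counting error only. Some items that the rule for named genes or the marker check would have included are not reported here.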

Additional observations from a re-analysis of the deposited data

How the results depend on the processing

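No paired analysis was possible because each line has a single list called on its pooled libraries, so no replicate could be left out either. The planned share of soft-masked summits and the planned removal of soft-masked members were not run because the genome given is all upper case. The number of gained intervals, 11629 as reported, was 2046 at a −log10 q of at least 10 and 5578 at 16 or more depth-scaled reads. For the same 2 settings, which keep fewer and stronger intervals by construction, the gained share was 8.49% and 15.4%, the share in clusters 10.5% and 21.6%, the median TSS distance 57184 and 56708 bp, the CTCF share 1.86% and 2.17%, and the median GC content 51.7% and 50.2%. The high-copy share was 10.6% at a −log10 q of at least 10. With both lists at a −log10 q of at least 5, the gained share was 20.0%, the share in clusters 20.5% and the CTCF share 2.50%. With gaps up to 500 bp taken as overlap, the gained share was 20.5% and the share in clusters 27.2%, with a TSS distance of 78715 bp. Outside lncRNA bodies, 26.8% were in clusters at a TSS distance of 65239 bp, and a TSS limit of 5000 bp gave 79398 bp. Joining at 5000 or 25000 bp put 17.4% or 40.7% in clusters. GC content over 250 bp either side was 46.1%. A 24-mer count of at least 2 or 100, chosen after seeing the data, gave 15.6% or 4.62%. Beyond what fewer intervals or a wider window bring about, the cause was not tested. Weak summits near the calling limit make up most members, so absence from the C4-2B list does not show closed chromatin there.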
